A study of Mus musculus with 6 samples.

Results

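Sensitive response genes of peroxisome proliferator-activated receptor alpha (PPARα) were examined in the mouse heart. The set is a list of 9 genes, *Pdk4*, *Angptl4*, *Ucp3*, *Cpt1a*, *Acot1*, *Plin2*, *Plin5*, *Vnn1* and *Ppara*, which are known to respond strongly to PPARα agonists or to fasting. They were taken by symbol, and all 9 were found among the 24346 genes of the files. Of these, 8 entered the tests, and *Vnn1* did not because its mean level was under the minimum of 0.5 FPKM (fragments per kilobase of exon, scaled to the mapped fragments of the library). The tests covered 12923 genes in all.

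The study examined the heart in a mouse model of diet-induced steatohepatitis (nonalcoholic steatohepatitis, NASH), and asked what the diet and a PPARα drug change there. RNA of male C57BL/6J mice was sequenced in 6 libraries, 2 in each of 3 groups. Mice of the C group ate normal chow. Mice of the N group ate the NASH diet, which is rich in fat, cholesterol and sucrose and contains bile acid. Mice of the NP group ate the NASH diet with pemafibrate, a selective PPARα modulator, at 0.1 mg/kg. The labels give 3 weeks on the diet for every group, whereas the methods of the study state a longer time. The labels name heart as the tissue, although the extraction protocol beside them speaks of liver. Nothing in the labels says that the 2 libraries of a group came from separate animals, so the *P* values measure only the spread between these libraries, which may be technical. The N and NP libraries were supplied under names of 2 kinds, the same kind for both replicate 1 libraries and another for both replicate 2 libraries, and the labels do not say what the kinds mean. The first kind holds the word heart and the other the letters 3w, although every label gives 3 weeks, so in N and NP the replicate number and whatever the kinds stand for cannot be told apart.

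PPARα is a nuclear receptor that binds fatty acids and fibrate drugs. Together with a retinoid X receptor it occupies elements in which the hexamer AGGTCA is repeated, and it raises the transcription of genes for the uptake, activation, storage and mitochondrial oxidation of fatty acids. In the heart, which burns mainly fatty acids, these genes are known to be raised by fasting, by a fatty diet and by diabetes, when more fatty acid reaches the muscle.

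The labelled tissue was checked against marker genes. The 10 cardiomyocyte markers were detected in all 6 libraries, with summed levels of 73251 and 77383 FPKM in the C libraries, 54024 and 57826 FPKM in the N libraries, and 57180 and 67225 FPKM in the NP libraries. The most abundant of them was *Myl2*, the ventricular myosin light chain, at 11855 to 26366 FPKM. The myosins that define fast skeletal muscle, *Myh1*, *Myh2* and *Myh4*, were at or near 0 in every library, and the summed level of the 10 skeletal muscle markers, 1302 to 2420 FPKM, came mostly from *Ckm*, which heart muscle also expresses. With limma, 0 of 10 cardiomyocyte markers passed the threshold in any comparison (5, 1 and 2 at unadjusted *P* under 0.05 for N against C, NP against N and NP against C), nor did any of the 5 skeletal muscle markers tested (1, 1 and 1).

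Several libraries stood apart before any member was considered. The 6 atrial markers summed to 308 and 176 FPKM in the C libraries, but to 3703 and 5222 FPKM in the N libraries and to 3789 and 6240 FPKM in the NP libraries. Their most abundant gene, *Nppa*, was at 303 and 158 FPKM in C against 1992 to 3259 FPKM in the other 4 libraries, and *Sln*, the atrial regulator of the calcium pump, was at 0 and 0.45 FPKM in C against 250 to 518 FPKM. With limma, 6 of 6 passed the threshold between N and C, 0 of 6 between NP and N (0 at unadjusted *P* under 0.05) and 3 of 6 between NP and C. The 9 hepatocyte markers found summed to 636 FPKM in C replicate 2, with *Alb* at 211 FPKM, and to 22.9 to 53.1 FPKM in the other 5 libraries, and 0 of the 8 tested passed in any comparison (6, 0 and 6 at unadjusted *P* under 0.05). The adipocyte markers summed to 1063 to 1410 FPKM, of which *Fabp4*, which cardiac vessels also express, made up 995 to 1341 FPKM. *Cfd*, which encodes adipsin, was at 1.17 and 5.53 FPKM in C, 142 and 53.5 FPKM in N, and 11.2 and 44.3 FPKM in NP. The defining adipocyte gene *Adipoq* was at 0.593 and 1.12 FPKM in C, 16.0 and 14.6 FPKM in N, and 1.66 and 11.9 FPKM in NP, and 0 of 9 tested passed (6, 1 and 5 at unadjusted *P* under 0.05). The 10 macrophage markers summed to 350 and 317 FPKM in C, 637 and 542 FPKM in N, and 262 and 230 FPKM in NP, with *Lyz2* the most abundant. Of these 10, 4 were higher in N than in C and 6 were lower in NP than in N with adjusted *P* under 0.05, and 0 passed between NP and C (2 at unadjusted *P* under 0.05). The C libraries were also deeper, at about 26000000 and 21400000 reads, than the N and NP libraries, at about 8220000 to 8790000 reads. The part of these differences in the results on the 9 genes was not tested, and with respect to the C group they cannot be told apart from the diet. In bulk tissue, fewer cells of a type and less RNA per cell cannot be told apart either.

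**Figure D1:**
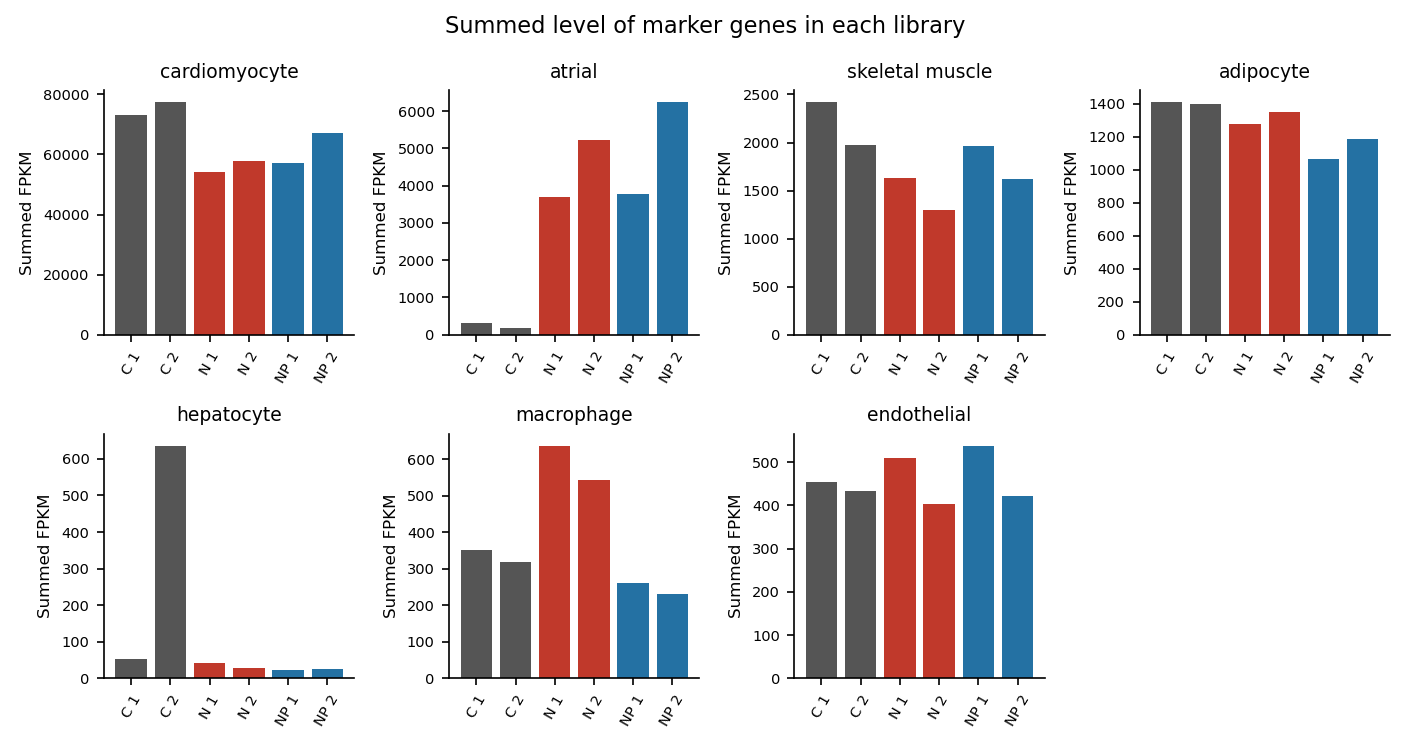
Summed FPKM of the genes in each marker list (vertical axis, from 0) in each of the 6 libraries (horizontal axis), with grey bars for C, red for N and blue for NP. Atrial genes sum to 308 FPKM or less in C and to 3703 FPKM or more in N and NP, hepatocyte genes stand out in C replicate 2 at 636 FPKM, and macrophage genes are highest in the N libraries at 637 and 542 FPKM.

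Among the 9 genes, levels per length spanned more than 3 orders of magnitude in chow hearts. *Pdk4* came first with a mean of 1073 ± 49.4 FPKM (SD, n = 2), followed by *Plin5* at 118 ± 5.52 FPKM, *Ucp3* at 74.3 ± 11.1 FPKM and *Plin2* at 50.7 ± 0.262 FPKM. *Angptl4* at 34.1 ± 1.92 FPKM lay above *Cpt1a* at 22.3 ± 1.33 FPKM, *Ppara* at 19.95 ± 1.23 FPKM and *Acot1* at 16.0 ± 2.51 FPKM, and *Vnn1* came last at 0.199 ± 0.160 FPKM. The neighbours *Cpt1a* and *Ppara* were separated by less than the sum of their SDs, whereas the values of the first 5 genes did not overlap. In the NP hearts the order was different. *Pdk4* at 214 ± 176 FPKM and *Plin5* at 82.9 ± 28.6 FPKM were still the most abundant, with overlapping libraries. *Plin2* at 35.2 ± 3.94 FPKM, *Ppara* at 27.3 ± 0.389 FPKM, *Ucp3* at 17.5 ± 2.89 FPKM and *Cpt1a* at 14.9 ± 0.411 FPKM followed, and of these *Ucp3* and *Cpt1a* differed by less than the spread of *Ucp3*. *Acot1* at 8.81 ± 3.38 FPKM and *Angptl4* at 6.44 ± 4.41 FPKM overlapped, so that *Angptl4* moved from the fifth place in C to the eighth in NP.

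**Figure D2:**
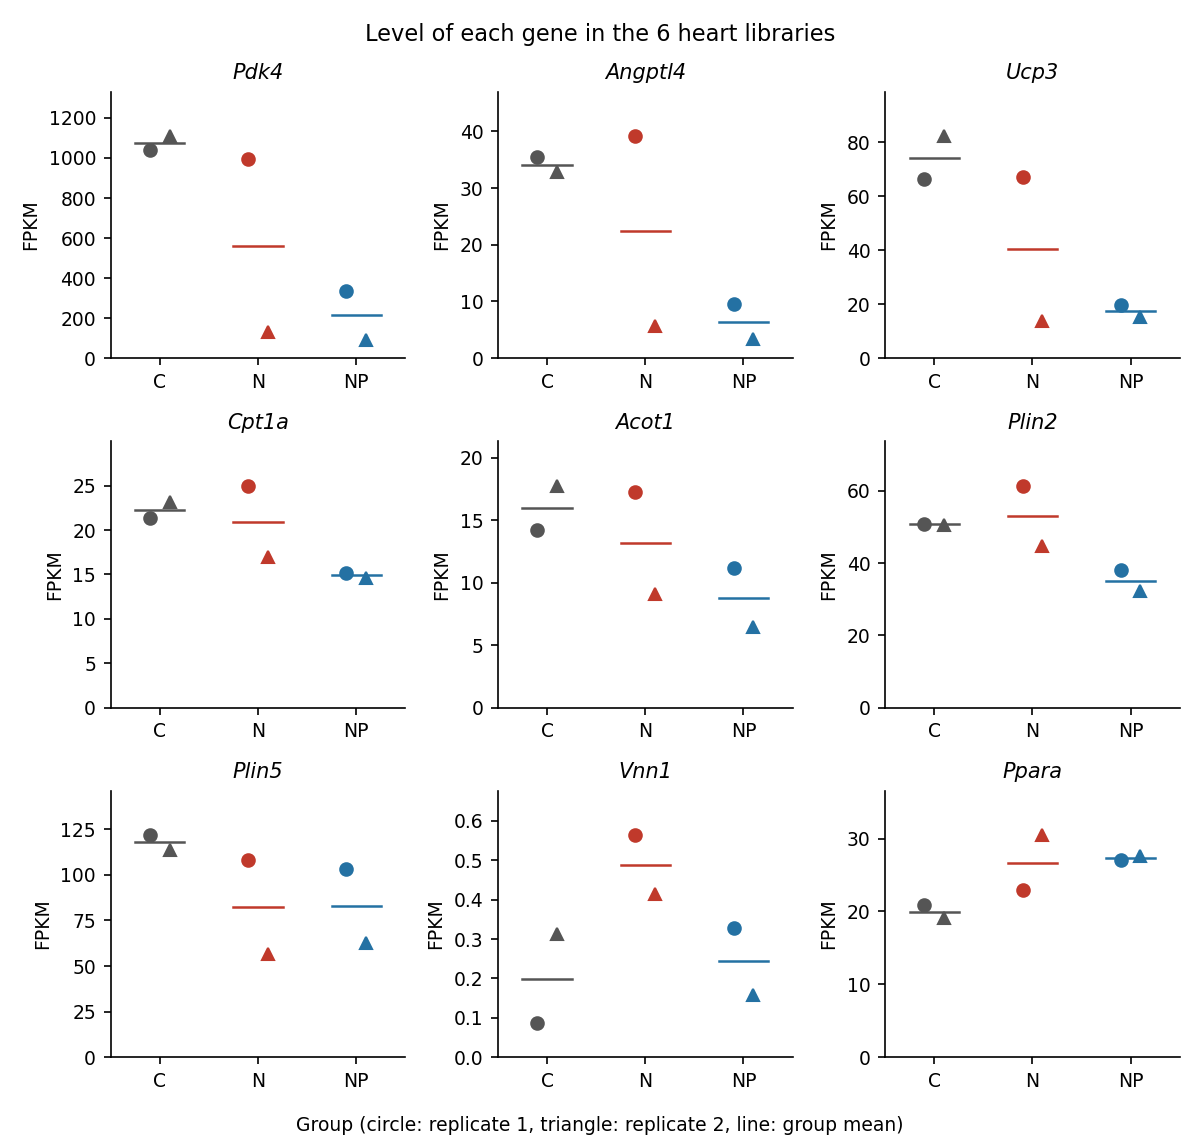
FPKM of each of the 9 genes (vertical axes, from 0) in the C, N and NP groups (horizontal axis), with a circle for replicate 1, a triangle for replicate 2 and a line for the group mean. For *Pdk4*, *Angptl4* and *Ucp3*, N replicate 1 lies near the C libraries, at 996, 39.1 and 67.1 FPKM, and N replicate 2 lies near the NP libraries, at 129, 5.60 and 13.7 FPKM.

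The receptor itself was examined first. *Ppara*, which encodes PPARα (chr15:85734910-85806851, plus strand, GRCm38), was at 20.8 and 19.1 FPKM in chow hearts (replicates 1 and 2, the order used throughout). For N it was at 22.9 and 30.4 FPKM, and for NP at 27.1 and 27.6 FPKM. All 4 libraries of the NASH diet groups thus lay above both chow libraries, and the NP values lay between the 2 N values. On the scale of log2(FPKM + 1), on which all differences are given, N exceeded C by 0.39 (95% interval 0.012 to 0.77) and NP exceeded C by 0.44 (0.059 to 0.81). The limma test with Benjamini-Hochberg adjustment over all genes tested gave adjusted *P* values of 0.318 and 0.569, over the threshold of 0.05. Between NP and N the difference was 0.05 (-0.33 to 0.42, adjusted *P* = 0.995).

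*Pdk4* encodes a pyruvate dehydrogenase kinase that limits the oxidation of glucose carbon when fat is burned (chr6:5483351-5496278, minus strand). It was at 1038 and 1108 FPKM in the C libraries, where it ranked 79th among all genes in both. In the N group it was at 996 FPKM in replicate 1 and at 129 FPKM in replicate 2. In the NP group it was at 338 FPKM in replicate 1 and at 89.5 FPKM in replicate 2. N replicate 1 was thus just below chow, and the other 3 libraries of the NASH diet groups were well below it. With all libraries scaled to the same total, N replicate 1 lay above chow instead, at 1066 FPKM against 984 and 1007 FPKM. *Pdk4* had the widest range of the 8 tested genes, with the highest library 12.4 times the lowest, and its rank went down to 849th in NP replicate 2. The depth does not limit this gene, since its lowest value stands for about 2491 reads. The differences were -1.58 between N and C (95% interval -4.10 to 0.95, adjusted *P* = 0.533), -1.04 between NP and N (-3.57 to 1.49, adjusted *P* = 0.956) and -2.62 between NP and C (-5.14 to -0.09, adjusted *P* = 0.602) by limma. The gap between the 2 N libraries, 2.94, was larger than each of these.

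*Angptl4* encodes a secreted inhibitor of lipoprotein lipase that keeps circulating triglyceride from being taken up (chr17:33774900-33781575, minus strand). Its levels were 35.5 and 32.8 FPKM in C, 39.1 and 5.60 FPKM in N, and 9.56 and 3.32 FPKM in NP. N replicate 1 was above both chow libraries and N replicate 2, as for *Pdk4*, was between the NP libraries. Its lowest value, in NP replicate 2, stands for about 87 reads. Both NP libraries lay below both C libraries, with a difference of -2.38 (95% interval -4.48 to -0.28, adjusted *P* = 0.580 by limma). Between NP and N the difference was -1.27 (-3.37 to 0.83, adjusted *P* = 0.890), and between N and C it was -1.11 (-3.21 to 0.99, adjusted *P* = 0.605).

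Of the mitochondrial genes, *Ucp3* encodes an uncoupling protein of the inner membrane that follows the supply of fatty acids (chr7:100472991-100486432, plus strand). It was at 66.5 and 82.2 FPKM in C, 67.1 and 13.7 FPKM in N, and 19.5 and 15.4 FPKM in NP. N replicate 1 lay between the chow libraries and N replicate 2 below both NP libraries. The mean of C was 4.25 times that of NP, with a difference between NP and C of -2.03 (95% interval -3.66 to -0.39, adjusted *P* = 0.551 by limma). It was -0.79 between NP and N (-2.42 to 0.85, adjusted *P* = 0.935) and -1.24 between N and C (-2.88 to 0.39, adjusted *P* = 0.452). A predicted gene on the other strand, *Gm10603*, overlaps the locus but shares 0 exonic bases with *Ucp3*.

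*Cpt1a* encodes the liver isoform of carnitine palmitoyltransferase I, which commits long-chain fatty acids to the mitochondria (chr19:3322326-3385735, plus strand). It was at 21.3 and 23.2 FPKM in C, 25.0 and 16.9 FPKM in N, and 15.2 and 14.6 FPKM in NP. Both NP libraries were below all 4 others, and the chow libraries lay between the N libraries. The difference between NP and N was -0.44 (95% interval -0.90 to 0.02, adjusted *P* = 0.665) and that between NP and C was -0.55 (-1.01 to -0.09, adjusted *P* = 0.557) by limma. Between N and C it was -0.11 (-0.57 to 0.35), and with every library scaled to the same total it was 0.06. That scaling moved the median difference of all genes to 0.12 in the comparisons of N and of NP with C, against -0.03 and -0.01 without it. The isoform typical of heart muscle, *Cpt1b*, was far more abundant, at 378 and 365 FPKM in C, 317 and 257 FPKM in N, and 329 and 290 FPKM in NP.

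*Acot1* encodes a cytosolic thioesterase that splits long-chain acyl-CoA (chr12:84009502-84017670, plus strand). It was at 14.2 and 17.8 FPKM in C, 17.3 and 9.06 FPKM in N, and 11.2 and 6.42 FPKM in NP, so that both NP libraries lay below chow. The difference between NP and C was -0.83 (95% interval -1.70 to 0.04, adjusted *P* = 0.628 by limma), and that between NP and N was -0.51 (-1.38 to 0.36, adjusted *P* = 0.893). The gene shares 26.4% of its stretches of 75 bases with its neighbours *Acot2* to *Acot6* and another transcript, so some of its reads could have been assigned to them. Its mitochondrial relative *Acot2* was at 37.3 and 38.5 FPKM in C, 36.4 and 22.4 FPKM in N, and 27.1 and 24.5 FPKM in NP.

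The 2 members that coat lipid droplets differed in pattern. *Plin2* encodes a perilipin found on droplets of most cells (chr4:86626910-86670217, minus strand), and was at 50.9 and 50.5 FPKM in C, 61.4 and 44.8 FPKM in N, and 38.0 and 32.4 FPKM in NP. Both NP libraries were below all 4 others. Its difference between NP and N, -0.57 (95% interval -0.99 to -0.14), had an unadjusted *P* of 0.0174, and an adjusted *P* of 0.381 by limma. The mean of N was 1.51 times that of NP. Between NP and C the difference was -0.52 (-0.95 to -0.09, adjusted *P* = 0.551), and between N and C it was 0.05 (-0.38 to 0.47).

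*Plin5* encodes the perilipin that ties droplets to mitochondria in oxidative tissue (chr17:56111597-56117606, minus strand). It was at 122 and 114 FPKM in C, 108 and 56.7 FPKM in N, and 103 and 62.7 FPKM in NP. Here replicate 1 of N and of NP lay just below chow, and replicate 2 of both was lowest. With all libraries scaled to the same total, N replicate 1 at 116 FPKM lay above both C libraries, at 115 and 104 FPKM, and NP replicate 1 at 111 FPKM lay between them. The difference was 0.04 between NP and N (95% interval -0.83 to 0.91, adjusted *P* = 0.9996) and -0.58 between N and C (-1.45 to 0.29, adjusted *P* = 0.501) by limma.

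*Vnn1* encodes pantetheinase, an enzyme of coenzyme A turnover that responds to PPARα agonists mainly in liver and gut (chr10:23894688-23905344, plus strand). It was at 0.0856 and 0.312 FPKM in C, 0.563 and 0.414 FPKM in N, and 0.328 and 0.159 FPKM in NP, which stands for about 3 to 15 reads in a library. When no gene was left out for a low level, the limma difference between NP and N was -0.26 (95% interval -0.58 to 0.06, adjusted *P* = 0.725) and that between N and C was 0.32 (-0.0049 to 0.64, adjusted *P* = 0.361).

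Across the 8 tested genes, 0 passed an adjusted *P* of 0.05 by limma in any comparison. This holds for the 3-group model of all 6 libraries without a block, that is a term for the replicate number. A block over all 3 groups also gave 0. With a block on the numbers of N and NP alone, *Pdk4* and *Plin5* passed between N and C. *Plin2* then passed between NP and N, and *Pdk4* between NP and C. The labels do not say that the numbers pair the libraries. With 1 library left out, *Ucp3* passed between N and C without N replicate 1 and between NP and N without N replicate 2, and no other member did. Between N and C, 1.55% of all genes passed, and at unadjusted *P* under 0.05 the count was 1 of 8 (*Ppara*) against 15.0% of all genes. This count was 6 without N replicate 1 (14.4% of all genes) and 0 without any one of the other libraries (8.66% and 7.19% without C replicates 1 and 2, and 15.1% to 15.8% without the other 3). Between NP and N, 1.39% of all genes passed, and the unadjusted count was 1 of 8 (*Plin2*) against 8.04%. It was 6 without N replicate 2 (9.11% of all genes), 0 without N replicate 1 (8.95%) or without NP replicate 2 (9.74%), and 1 without any one of the other 3 libraries (5.99% to 7.26%). Between NP and C, 0.0387% of all genes passed, and the unadjusted count was 6 of 8 (*Pdk4*, *Angptl4*, *Ucp3*, *Cpt1a*, *Plin2* and *Ppara*) against 8.05%. This last count was 0 without C replicate 1 (4.15% of all genes), without C replicate 2 (3.28%) or without NP replicate 2 (7.73%), 4 without NP replicate 1 (8.13%), and 7 without N replicate 1 or without N replicate 2 (9.49% in both). In such a fit a group is left with a single library, which is assumed to vary like the other groups. With all libraries scaled to the same total, the count between NP and C was 3 of 8, against 10.1% of all genes. The median difference of the 8 genes was -0.45 between N and C, -0.54 between NP and N and -0.69 between NP and C, beside -0.03, 0.03 and -0.01 over all genes tested. With all libraries scaled to the same total, the medians of the 8 genes were -0.28, -0.56 and -0.54 in the same order. Those over all genes were then 0.12, 0.01 and 0.12. Leaving out a single library, without that scaling, also moved the medians of the 8 genes. Between N and C the median was -0.89 without N replicate 1 and 0.14 without N replicate 2. Between NP and N it was -0.024 without N replicate 1, -0.87 without N replicate 2 and -0.28 without NP replicate 2. Between NP and C it ran from -1.04 without NP replicate 1 to -0.49 without NP replicate 2. The comparisons share libraries, so they are not independent of each other. An adjusted *P* over the threshold does not show that the levels were equal, and the intervals of *Pdk4* and *Angptl4* reach below -3 in both comparisons with C.

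The groups were also compared by whether their libraries overlapped. Between NP and C, the NP libraries were both lower for 7 of 8 genes, against 23.0% of all genes, and both higher for *Ppara*, against 19.5%. Between NP and N, they were both lower for *Cpt1a* and *Plin2*, against 14.7% of all genes, and both higher for 0 of 8, against 15.2%. Between N and C, the N libraries were both lower for *Pdk4* and *Plin5*, against 27.0% of all genes, and both higher for *Ppara*, against 22.5%. For N against C, the counts of 2 and 1 of 8 are close to the shares of all genes. The same counts were then taken with libraries scaled to the same total, to the same median or by quantiles, after the data had been seen. The count of 2 members lower in N than in C became 0 of 8 with the same total (11.0% of all genes), 0 by quantiles (26.8%) and 3 with the same median (28.4%), when *Ucp3* joined. The count of 7 members lower in NP than in C became 6 of 8 with the same total (9.61% of all genes), without *Plin5*. The other counts of members in this paragraph were the same under the 3 scalings. For *Ppara*, however, the shares of all genes that were both higher went to 41.1% in N and 37.8% in NP, against C, with the same total.

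**Figure D3:**
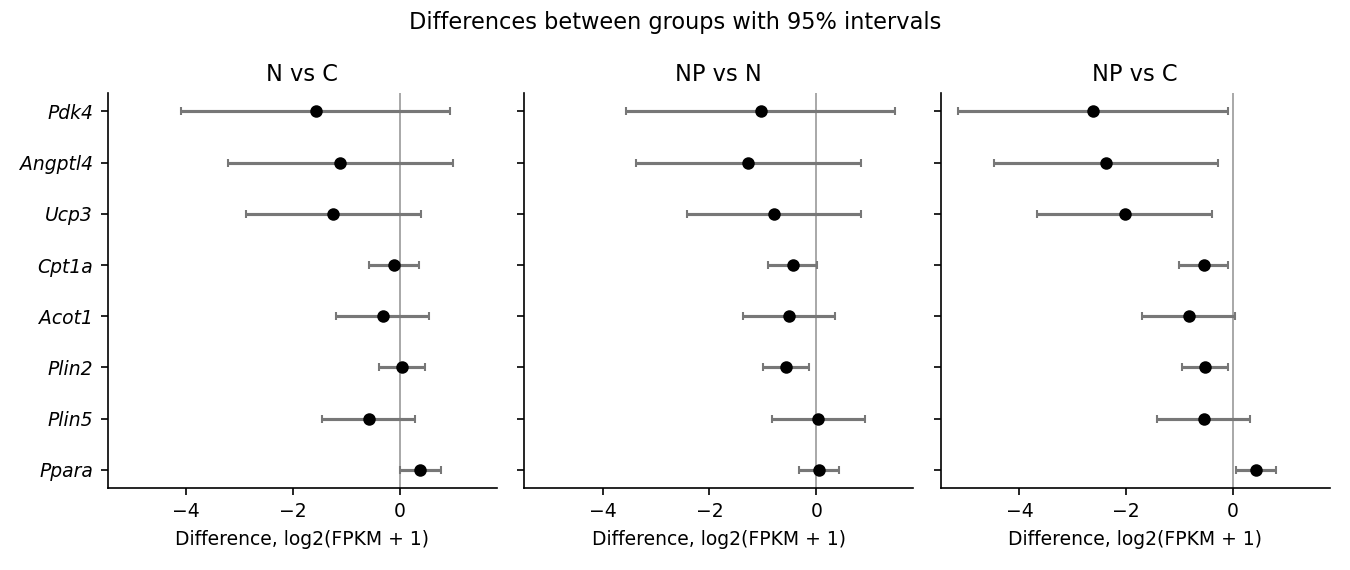
Difference of mean log2(FPKM + 1) between groups (horizontal axis, points) with its 95% interval (bars) for the 8 tested genes (vertical axis), N minus C on the left, NP minus N in the middle and NP minus C on the right. The intervals of *Pdk4*, *Angptl4* and *Ucp3* are the widest, as that of *Pdk4* from -3.57 to 1.49 between NP and N. In the comparison of NP with C the intervals of 6 genes leave out 0, but 0 of the 8 passed an adjusted *P* of 0.05 by limma. An interval that leaves out 0 stands for an unadjusted *P* under 0.05, which 8.05% of all genes had there.

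NP and N were next set side by side within each kind of name, 1 library against 1, as values without a test. Among the replicate 1 libraries, NP was below N for 7 of the 8 genes, against 46.4% of all genes tested, with N at 2.95 times NP for *Pdk4*, 4.09 times for *Angptl4* and 3.44 times for *Ucp3*. For *Cpt1a*, *Acot1* and *Plin2* the N library was 1.64, 1.54 and 1.62 times the NP library, for *Plin5* 1.05 times, and *Ppara* was higher in NP. Among the replicate 2 libraries, NP was below N for 6 of the 8 genes, against 45.6% of all genes, by smaller ratios. N was 1.44 times NP for *Pdk4*, 1.69 times for *Angptl4*, 1.16 times for *Cpt1a*, 1.41 times for *Acot1*, 1.38 times for *Plin2* and 1.10 times for *Ppara*, while *Ucp3* and *Plin5* were higher in NP. NP was lower within both kinds of name for 5 genes, *Pdk4*, *Angptl4*, *Cpt1a*, *Acot1* and *Plin2*, against 26.1% of all genes tested. Of the marker lists, NP was lower within both kinds for 9 of 9 adipocyte and 10 of 10 macrophage genes, 2 of 10 endothelial genes, 1 of 8 hepatocyte genes, 1 of 5 skeletal muscle genes, 0 of 10 cardiomyocyte genes and 0 of 6 atrial genes, and their part in the difference of the members was not tested. The median difference of the 8 genes was -0.68 among the replicate 1 libraries and -0.32 among the replicate 2 libraries, and that of all genes was 0.02 in both.

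In the NASH diet groups, the 2 libraries of a group differed more for these genes than for the median gene. The median absolute difference between replicates in C was 0.11 for the 8 genes and 0.10 for all genes. In N it was 0.89 against 0.21, and in NP 0.52 against 0.20. A difference of more than 1 between replicates was found in N for 3 of the 8 genes (*Pdk4*, *Angptl4* and *Ucp3*) and for 1.76% of all genes, and in NP for 2 (*Pdk4* and *Angptl4*) and for 1.65%. In C it was found for 0 of the 8 genes and for 1.32% of all. Replicate 2 was below replicate 1 in both N and NP for 7 of the 8 genes, the exception being *Ppara*, against 36.3% of all genes tested. It was 6 of 8, without *Cpt1a*, when libraries were scaled to the same median. The FPKM of replicate 1 was 7.72 times that of replicate 2 in N and 3.78 times in NP for *Pdk4*, 6.99 and 2.88 times for *Angptl4*, and 4.89 and 1.27 times for *Ucp3*. Only 7 of the 12923 genes had a more negative difference than *Pdk4* between the N replicates, and 11 between the NP replicates. For *Pdk4*, *Angptl4* and *Ucp3*, NP and N thus differed by less than the replicates of N did. The marker lists were set beside this. Skeletal muscle markers were lower in replicate 2 for 4 of 5 genes in N and 4 of 5 in NP. Hepatocyte markers were lower in replicate 2 for 2 of 8 genes in N and 6 of 8 in NP. Atrial markers, led by *Nppa*, were lower in replicate 2 for 0 of 6 genes in N and 0 of 6 in NP, with median differences of 0.53 and 0.70. Adipocyte markers were lower in replicate 2 for 5 of 9 genes in N (median -0.12) and for 1 of 9 in NP (median 1.77), where they summed to 1063 FPKM in replicate 1 and 1190 FPKM in replicate 2. Endothelial markers, led by *Pecam1*, were lower in replicate 2 for 8 of 10 genes in N and 9 of 10 in NP, with sums of 510 and 404 FPKM in N and 538 and 423 FPKM in NP. Macrophage markers were lower for 8 and 9 of 10, with sums of 637 and 542 FPKM in N and 262 and 230 FPKM in NP. Cardiomyocyte markers were lower for 5 of 10 genes in N and 3 of 10 in NP, with sums of 54024 and 57826 FPKM in N and 57180 and 67225 FPKM in NP. The part of these cell types in the difference between replicates was not tested.

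**Figure D4:**
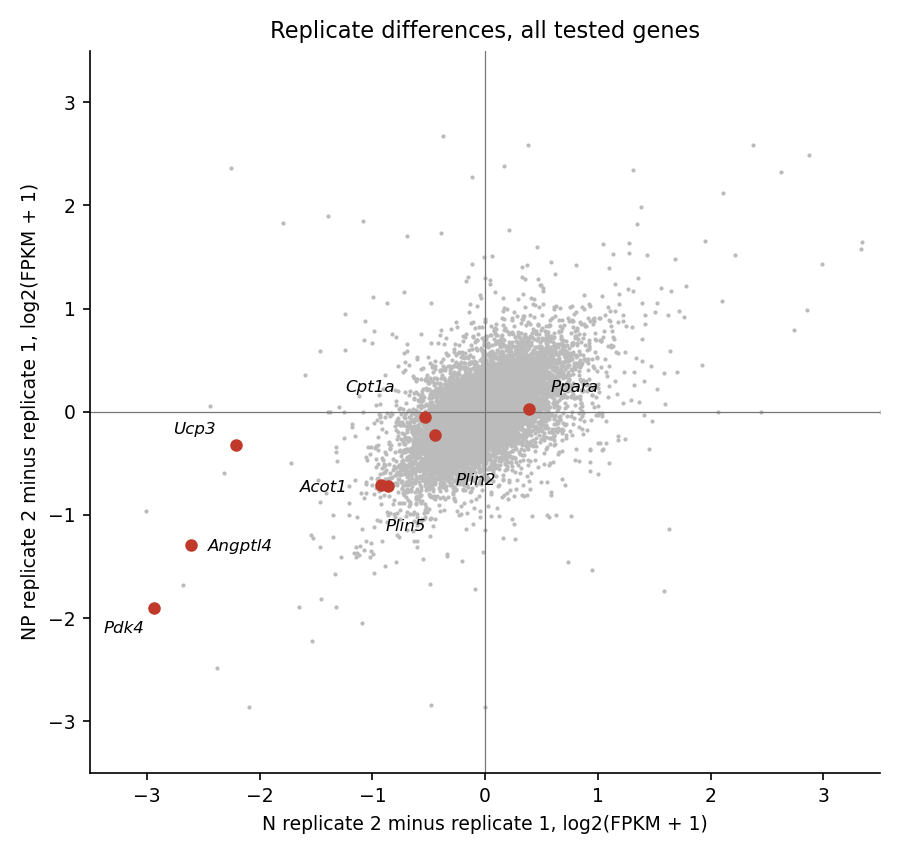
Replicate 2 minus replicate 1 on the scale of log2(FPKM + 1) in N (horizontal axis) and in NP (vertical axis), with the 12923 tested genes in grey and the 8 members in red; 42 genes lie beyond the axes, which end at 3.5. *Pdk4*, *Angptl4* and *Ucp3* lie at the far left, at -2.94, -2.60 and -2.21 in N, away from the mass of genes.

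The differences were therefore also taken with each library left out. Without N replicate 1, the difference between NP and N changed sign for *Pdk4* (0.43), *Angptl4* (0.03), *Ucp3* (0.32) and *Ppara* (-0.15), whereas *Cpt1a* (-0.17), *Acot1* (-0.08) and *Plin2* (-0.35) stayed lower in NP. Without N replicate 2, it was -2.51 for *Pdk4*, -2.57 for *Angptl4* and -1.89 for *Ucp3*, and *Ucp3* then passed the threshold (adjusted *P* = 0.0494 by limma, the lowest over its alternatives). For *Plin5* the sign changed without N replicate 2 (-0.42) and without NP replicate 1 (-0.32). For *Cpt1a* and *Plin2* the NP libraries were both below the N libraries, as for 14.7% of all genes, so no left-out library could change the sign. *Plin2* was lower in NP by 0.35 to 0.79. The libraries of *Acot1* overlapped, and its difference between NP and N ran from -0.94 to -0.08. A left-out C library cannot move a difference between NP and N. Between N and C, leaving out N replicate 1 gave -3.05 for *Pdk4*, -2.41 for *Angptl4* and -2.35 for *Ucp3*, of which *Ucp3* passed (adjusted *P* = 0.0231, over its alternatives 0.0231 to 0.953). Leaving out N replicate 2 gave -0.11, 0.19 and -0.14 for the same genes. Without it, *Cpt1a* (0.16) and *Acot1* (0.12) also changed sign between N and C, and *Plin2* did so without N replicate 1 (-0.17). Between NP and C the libraries did not overlap for any of the 8 genes, so no left-out library could change a sign. Of all genes tested, 23.0% were lower in NP than in C without overlap and 19.5% were higher. A left-out N library cannot move this difference. Over the 6 fits it ran from -3.57 to -1.66 for *Pdk4*, from -3.02 to -1.73 for *Angptl4*, from -2.19 to -1.87 for *Ucp3* and from 0.38 to 0.50 for *Ppara*.

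**Figure D5:**
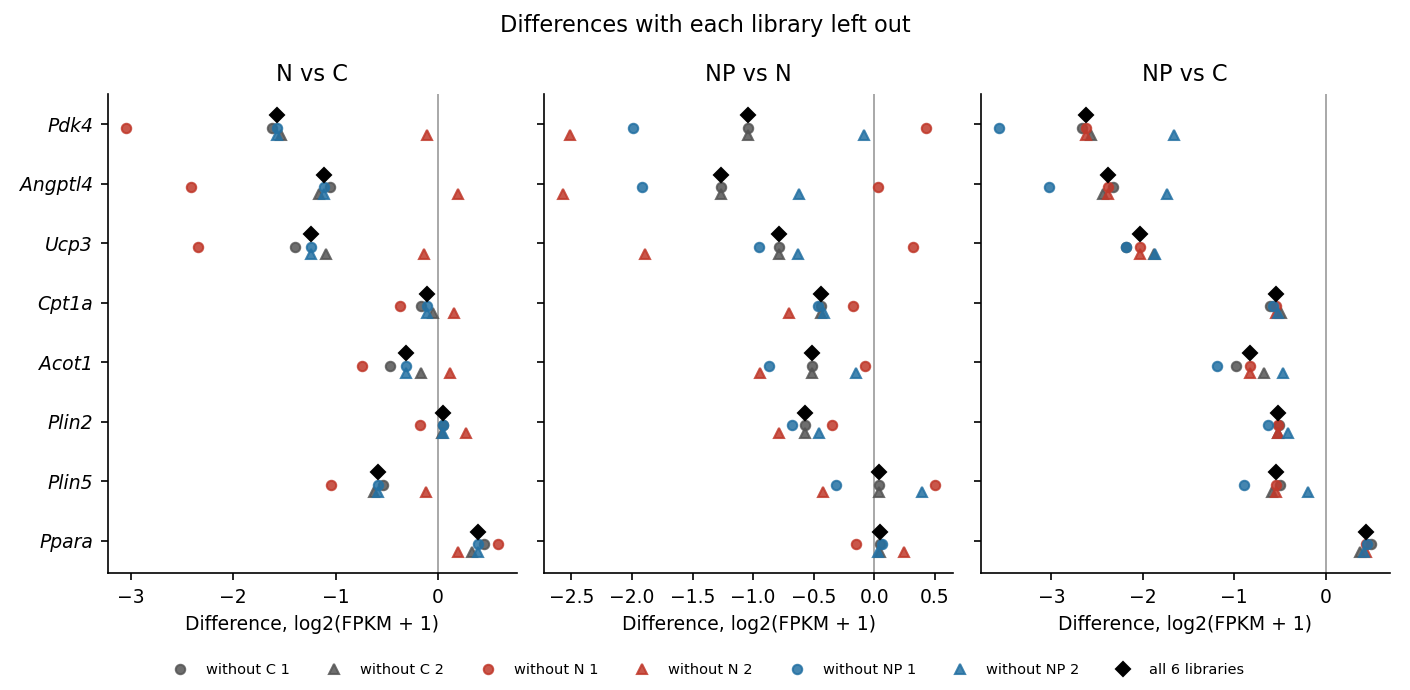
Difference of mean log2(FPKM + 1) (horizontal axis) for the 8 tested genes (vertical axis) from all 6 libraries (black diamonds) and with 1 library left out (circles for replicate 1 and triangles for replicate 2, in grey for C, red for N and blue for NP). In the comparison of NP with N, *Pdk4* runs from -2.51 without N replicate 2 to 0.43 without N replicate 1, and in the comparison of NP with C every point of *Pdk4* lies at -1.66 or below.

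Because *Pdk4* and *Ucp3* had wide ranges and *Plin2* separated NP from the other groups, their promoters are shown. The windows hold 250 bases before and 50 bases after a transcription start, from RefSeq on GRCm38.p6, and 7 of the 9 genes (all but *Angptl4* and *Vnn1*) were matched to them, *Plin5* with 2. Letters AGGTCA, and TGACCT for the other strand, were searched and are in capitals. *Ucp3* (chr7:100472741-100473040, plus strand) held the hexamer at 2 positions, -149 and -44 bases from the start, *Plin2* (chr4:86670010-86670309, minus strand) held it at 1 position, -218 bases from the start on the other strand, and *Pdk4* (chr6:5496229-5496528, minus strand) did not hold it.
Ucp3: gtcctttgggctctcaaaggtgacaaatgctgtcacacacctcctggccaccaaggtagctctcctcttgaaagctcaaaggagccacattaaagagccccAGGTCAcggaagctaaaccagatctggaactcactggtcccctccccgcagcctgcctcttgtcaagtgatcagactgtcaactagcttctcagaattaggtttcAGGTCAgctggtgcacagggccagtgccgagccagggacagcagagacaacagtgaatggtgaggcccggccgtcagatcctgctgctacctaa
Plin2: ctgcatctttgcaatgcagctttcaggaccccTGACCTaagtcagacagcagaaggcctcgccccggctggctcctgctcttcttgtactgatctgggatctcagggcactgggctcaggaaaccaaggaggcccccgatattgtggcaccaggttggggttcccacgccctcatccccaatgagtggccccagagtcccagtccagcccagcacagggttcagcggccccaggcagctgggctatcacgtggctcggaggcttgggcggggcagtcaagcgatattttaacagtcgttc
Pdk4: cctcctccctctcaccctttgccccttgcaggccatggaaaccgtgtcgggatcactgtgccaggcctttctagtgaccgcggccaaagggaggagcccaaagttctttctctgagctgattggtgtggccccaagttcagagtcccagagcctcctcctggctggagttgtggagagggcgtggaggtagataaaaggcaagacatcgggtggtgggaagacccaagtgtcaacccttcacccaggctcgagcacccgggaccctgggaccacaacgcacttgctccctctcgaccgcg
The hexamer was also found once in *Cpt1a*, -94 bases from the start on the other strand, and once in each window of *Plin5*, and it was absent from the windows of *Acot1* and *Ppara*. It was thus in 5 of the 8 windows, against 16.3% of 32851 promoter windows of the same length. Only that of *Ucp3* held it at 2 or more positions, against 1.81% of all, and 0 of 8 held it as a direct repeat with 1 base between the copies, against 0.0396% of all. The windows with and without the letters did not divide the genes by range, as *Pdk4* without them had the widest range and *Ucp3* with 2 copies the third widest of the 8. A match describes the letters only and is not a binding site.

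Genes whose pattern was most like that of *Pdk4*, the member with the widest range, were listed by Pearson correlation over the 6 libraries as a description. The 5 closest of 12922 were *Lrrfip1* (r = 0.999), *Plscr1* (0.991), *Angptl4* (0.988), *Gm10052* (0.988) and *Colq* (0.987), so that 1 member was among them. Of the other members, *Acot1* (0.966) was 26th, *Ucp3* (0.955) 40th, *Plin5* (0.937) 93rd, *Cpt1a* (0.877) 303rd and *Plin2* (0.810) 605th. *Ppara* ran the other way, with r = -0.894. The libraries of a group share their diet, so the values do not rest on 6 independent points. In all, 51 of the 12922 genes had r over 0.95. A correlation does not measure the size of a change. *Lrrfip1* was at 25.6 to 31.9 FPKM, *Plscr1* at 5.94 to 8.06 FPKM, *Gm10052* at 57.6 to 76.7 FPKM and *Colq* at 2.36 to 6.31 FPKM. For *Pdk4*, in contrast, the highest library was 12.4 times the lowest.

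Relatives and partners of the members were taken from a list, of which 28 of 29 were found and 26 tested. *Ucp2*, the uncoupling protein of many cell types, was higher in N than in C by 1.10 (95% interval 0.81 to 1.39, adjusted *P* = 0.0126 by limma), and was the 1 gene of the list that passed in that comparison. Its levels were 51.1 and 58.7 FPKM in C, 124 and 113 FPKM in N, and 98.1 and 101 FPKM in NP, so that both NP libraries lay above C, where those of *Ucp3* lay below. In the other 2 comparisons 0 of 26 passed, with 1 and 4 at unadjusted *P* under 0.05. Among the other kinases of the pyruvate dehydrogenase complex, *Pdk2* was at 309 and 278 FPKM in C, 302 and 216 FPKM in N, and 351 and 262 FPKM in NP, a narrower range than that of *Pdk4*. *Lpl*, the lipase that *Angptl4* inhibits, was at 1744 to 2273 FPKM in all 6 libraries. Of the other perilipins, *Plin4* was at 95.7 and 91.7 FPKM in C, 75.03 and 46.0 FPKM in N, and 104 and 52.4 FPKM in NP, with the same low replicate 2 libraries as *Plin5*.

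Other PPARα targets formed a list of 43 genes, of which 39 were tested. *Ucp2* was the 1 that passed between N and C by limma (16 at unadjusted *P* under 0.05), and 0 passed in the comparisons of NP with N and with C (1 and 19 at unadjusted *P* under 0.05). Their median difference was -0.35 between N and C, -0.01 between NP and N and -0.32 between NP and C. The N libraries were both below C for 29 of 39, against 27.0% of all genes. The NP libraries were both below N for 6 of 39, against 14.7%, and both below C for 28 of 39, against 23.0%. With libraries scaled to the same total, these counts were 16, 9 and 19 of 39, against 11.0%, 16.3% and 9.61% of all genes. The enzymes of beta-oxidation were among them, as *Ech1* at 1899 and 2084 FPKM in C, 1345 and 1365 FPKM in N, and 1270 and 1378 FPKM in NP (N minus C -0.55, 95% interval -0.83 to -0.28, adjusted *P* = 0.0971). *Acadm* was at 990 and 1093 FPKM in C, 708 and 733 FPKM in N, and 727 and 793 FPKM in NP. For both enzymes the N replicates lay close together, unlike *Pdk4*, *Angptl4* and *Ucp3*.

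The receptors and coregulators, 19 genes that include the other PPARs and the retinoid X receptors, had 0 genes past the threshold by limma in the 3 comparisons, with 0, 0 and 2 at unadjusted *P* under 0.05 in the order N against C, NP against N and NP against C. *Rxrg*, a partner of *Ppara*, was at 55.9 and 53.1 FPKM in C, 56.5 and 48.0 FPKM in N, and 42.2 and 42.8 FPKM in NP. The median differences of the list were -0.06, 0.07 and 0.02. Genes of the response to fasting and glucocorticoids, 20 tested of 21, had 0 past the threshold, with 1, 1 and 4 at unadjusted *P* under 0.05, and median differences of -0.10, 0.21 and 0.15. The largest absolute t statistics of this list were those of *Irs2* between N and C and of *Ddit4* between NP and N. *Irs2*, an adaptor of the insulin receptor, was at 3.11 and 3.27 FPKM in C, 5.43 and 10.1 FPKM in N, and 6.95 and 6.62 FPKM in NP (N minus C 1.02, 95% interval 0.39 to 1.64, adjusted *P* = 0.148 by limma). *Ddit4*, which encodes an inhibitor of mTOR complex signalling, was at 37.9 and 37.7 FPKM in C, 37.4 and 26.3 FPKM in N, and 110 and 53.0 FPKM in NP (NP minus N 1.26, 95% interval 0.40 to 2.12, adjusted *P* = 0.310 by limma). Both NP libraries of *Ddit4* lay above all 4 others, whereas *Irs2* was above chow in the 4 libraries of the NASH diet groups. *Zbtb16*, a glucocorticoid target, was at 45.9 and 50.1 FPKM in C, 29.5 and 13.3 FPKM in N, and 43.9 and 9.86 FPKM in NP. Its replicate 2 libraries were the low ones, as for *Pdk4*, but NP replicate 1 was at the level of chow. Of the 20 genes, 14 were lower in replicate 2 in N and 17 in NP, against 51.5% and 50.9% of all genes tested. In both groups at once the count was 14, against 36.3%.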

How the data were processed

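The 6 heart libraries, 2 for each diet group, were used as the authors deposited them. The authors deposited FPKM per gene, and the submitters' processing notes name TopHat2 2.0.13, Bowtie2 2.2.3, SAMtools 0.1.19 and Cufflinks 2.2.1 with the mm10 genome. The kit marks strand, and whether the counting used strand is not given in the sources used here. Depth was estimated from the steps between low FPKM of 4245 genes with a single transcript in GENCODE M21. With it, 75.2 to 81.2% of their values came out as whole reads within 0.1, so reads per gene are approximate. Read counts were not tested.

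FPKM were taken as log2(FPKM + 1), a scale that understates the change of low genes. Genes with a mean of at least 0.5 FPKM were fitted with limma 3.58.1 in R 4.3.3, in 1 model of 3 groups with variances moderated by empirical Bayes along the mean level (trend) and 3 residual degrees of freedom. Adjustment was by Benjamini-Hochberg across the 12923 genes of a comparison, and the threshold was 0.05. Tables were made with pandas 2.3.3 and numpy 2.4.6, and plots with matplotlib 3.10.9, under Python 3.11.15. The fit was tested on simulated data.

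The named genes are the 9 members and, from each list, genes past the threshold, the 3 with the largest absolute t in a comparison, and direct relatives or partners of a member. The 5 genes most like the member of widest range were added. Outside this rule, *Pecam1*, *Myh1*, *Myh2* and *Myh4* were named as the most abundant or defining genes of a marker list and *Gm10603* as an overlapping gene, after their values were seen. The members and lists (relatives and partners, receptors and coregulators, other PPARα targets, fasting and glucocorticoid response, and markers of 7 cell types or tissues) were chosen with earlier results of these data known. Marker lists also cover the endothelium, of which 0 of 10 genes passed in any comparison (1, 0 and 1 at unadjusted *P* under 0.05 for N against C, NP against N and NP against C).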

Additional observations from a re-analysis of the deposited data

How the results depend on the processing

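With all 6 libraries 200, 179 and 5 genes passed the threshold between N and C, NP and N, and NP and C, and 0 of the 8 tested members in each. Libraries scaled to the same total gave 309 between N and C and 10 between NP and C. Between NP and C, a pseudocount of 0.1 gave 12 genes, and no filter on low values gave 0 (1353 at unadjusted *P* under 0.05, by limma). A fit of only the 2 groups compared gave 78 between NP and N. Leaving out each library in turn gave 49 (without C replicate 2) to 183 genes and 0 to 1 members between N and C, 67 (without NP replicate 2) to 108 genes and 0 to 1 members between NP and N, and 5 to 101 genes (without C replicate 1) and 0 members between NP and C. The causes were not tested. The labels number the replicates without saying that the numbers pair them. The correlation over 12923 genes of replicate 2 minus replicate 1 was 0.0471 between C and N, 0.124 between C and NP and 0.458 between N and NP. A replicate block gave 328, 200 and 20 genes and 0 members (2, 2 and 8 at unadjusted *P* under 0.05, and 2661, 1362 and 1664 of all 12923 genes). A block on the numbers of N and NP, leaving C unpaired, gave 1100, 301 and 55 genes, and 2 members between N and C (*Pdk4*, *Plin5*), 1 between NP and N (*Plin2*) and 1 between NP and C (*Pdk4*), with 6, 5 and 8 at unadjusted *P* under 0.05 (3661, 2066 and 2451 of all 12923 genes). The unadjusted count of members between N and C, 1 with all libraries and a trend, was 0 with no trend, with only the 2 groups compared or with libraries scaled to the same median. Where the libraries of the groups compared did not overlap, leaving out a library could not change the sign of a difference. Filters on low values, blocks, the variance model and a library left out of the third group cannot move a difference of the members. Of the 216 differences under the other settings (scalings, pseudocounts and left-out libraries of the groups compared), 205 kept their sign and 11 changed it without passing the threshold. Over all 17 alternatives, 6 of 408 differences passed the threshold, each with the same sign as before. Values of *Vnn1* stand for about 3 to 15 reads in a library, and each group has 2 libraries.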
